A study of Tetranychus urticae with 8 samples.

Results

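The carotenoid synthesis genes described here are the 5 gene IDs tetur01g11260, tetur01g11270, tetur11g04810, tetur11g04820 and tetur11g04840 of the spider mite Tetranychus urticae. They were chosen by ID as the carotenoid synthase-cyclase and phytoene desaturase genes that the mite acquired laterally from a fungus, and they fall into the clusters tetur01, with 2 genes, and tetur11, with 3. They are 5 of the 17654 IDs in the table, and all 5 were among the 12885 genes with enough reads to be tested. They were picked by ID, with earlier results of these data known, and the rule for picking them uses no measured value. Which of the 5 IDs encodes which enzyme is not stated in the labels or the table, so the genes are described by ID and cluster. No gene lengths were used, so ratios, sums and shares of reads across genes do not say which transcript is the more abundant. They are given for comparison between libraries.

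Carotenoids are yellow to red pigments that plants, fungi and microbes make and most animals take from food. In fungi a bifunctional synthase-cyclase joins geranylgeranyl diphosphate molecules into colourless phytoene, phytoene desaturase adds the double bonds that give the red lycopene, and the cyclase activity of the first enzyme closes the rings of carotenes. Spider mites and aphids carry such genes of fungal origin in their own genomes. In spider mites carotenoids colour the body and eyes, and phytoene desaturase is known to be needed for that colour and for the diapause of females, in which the body turns orange.

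RNA was sequenced from whole bodies of intact adult mites of strain London raised on bean leaves, in 4 libraries of females and 4 of males. Each female library pooled about 200 animals aged 3 days, and each male library about 800 animals aged 1 to 2 days, per the labels' protocols. Sex therefore cannot be told apart from age and pool size here. The labels call the libraries biological replicates and do not say whether the cultures were separate, so the p-values rest on the spread among pools, which may be technical. Each library held 12082575 to 21414612 reads on genes, and levels are given as CPM, the reads of a gene relative to the scaled total of its library.

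Males had more reads from this group of genes than females did. Of the 5 genes, 4 were higher in males by edgeR's quasi-likelihood test (Benjamini-Hochberg adjusted p below 0.05 over all tested genes), against 46.2% of all tested genes, and 2 of these 4 passed a 2-fold minimum as well, against 30.5% of all tested genes. None was higher in females: the count was 0 at an adjusted p below 0.05 by edgeR, against 43.7% of all tested genes, and 0 with the 2-fold minimum by edgeR, DESeq2 and limma-voom, against 26.9% by edgeR. At an unadjusted p below 0.05 the count by edgeR was also 0. The 4 male libraries lay above the 4 female libraries for 4 of the 5 genes, as they did for 44.2% of all tested genes. The median log2 fold change of the 5 (female minus male) was -0.89, beside -0.05 for all tested genes. With 5 genes these shares are a description and do not set the group apart from the transcriptome, in which differences between the sexes are common.

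**Figure D1:**
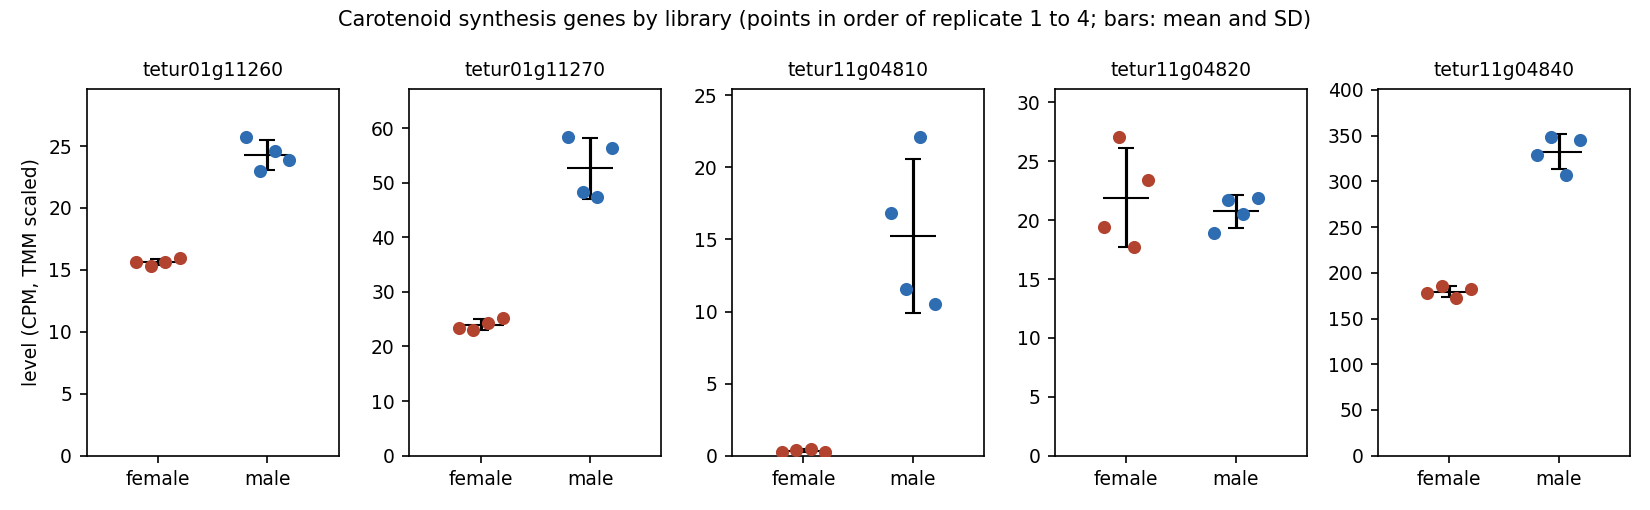
Level in CPM (vertical axes, each starting at 0) of the 5 genes in the 4 female and 4 male libraries; points are libraries, and bars give the mean and SD. Males lie above females in every panel but that of tetur11g04820, where the sexes overlap, and tetur11g04810 stays below 0.46 CPM in every female library.

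In the tetur01 cluster both genes were higher in males, tetur01g11270 by more than tetur01g11260. The reads of tetur01g11260 numbered 276, 199, 205 and 223 in female libraries 1 to 4, which is 15.6, 15.3, 15.6 and 15.9 CPM. In male libraries 1 to 4 they numbered 353, 485, 298 and 370, which is 25.7, 22.9, 24.6 and 23.9 CPM. The female values were nearly level, and the lowest male value stood well above them. The means were 15.6 ± 0.3 CPM in females and 24.3 ± 1.2 in males (SD, n = 4 per sex), with a log2 fold change of -0.63 ± 0.07 (SE; edgeR adjusted p = 4.17e-07). This passed the test at less than 2-fold.

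The neighbouring ID tetur01g11270 had 413, 300, 319 and 354 reads in female libraries 1 to 4, or 23.4, 23.1, 24.3 and 25.3 CPM. It had 801, 1020, 575 and 875 reads in male libraries 1 to 4, or 58.4, 48.3, 47.5 and 56.4 CPM. The sexes did not overlap, and among males replicates 1 and 4 were higher than replicates 2 and 3. The means were 24.0 ± 1.0 CPM in females and 52.6 ± 5.6 in males (SD, n = 4 per sex). The log2 fold change was -1.13 ± 0.08 (SE; edgeR adjusted p = 1.20e-09), a call of higher in males.

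The tetur11 cluster held the gene with the largest sex difference of the 5 and also the gene with the smallest. The gene tetur11g04810 was close to absent from the female libraries, with 5, 5, 6 and 4 reads in replicates 1 to 4, or 0.283, 0.385, 0.457 and 0.286 CPM. Male libraries 1 to 4 held 231, 245, 268 and 163 of its reads, or 16.8, 11.6, 22.1 and 10.5 CPM. Every male library was far above every female library, and the male libraries themselves were spread widely. The means were 0.353 ± 0.084 CPM in females and 15.3 ± 5.3 in males (SD, n = 4 per sex), with a log2 fold change of -5.41 ± 0.33 (SE; edgeR adjusted p = 4.72e-10).

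Taken over all libraries of a sex, tetur11g04810 had 20 reads in females and 907 in males, a ratio of 41.9 after scaling (95% exact interval 27.0 to 69.0, which covers counting error only). Only 252 of the 12885 tested genes, or 1.96%, had a lower log2 fold change. The gene had enough reads to be tested through its male libraries alone, so this rank describes its size and gives no further support. In females 3 reads correspond to 0.170 to 0.231 CPM per library, so the female values stood little above the limit that a count of 0 allows. Whether its few female reads came from a similar gene was not tested, and reads shared between near copies could have been lost or moved depending on counting settings that the sources do not state. In whole bodies, fewer cells that express a gene and less RNA per cell cannot be told apart.

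The next member, tetur11g04820, did not pass the test between the sexes. It had 342, 352, 233 and 328 reads in female libraries 1 to 4, or 19.4, 27.1, 17.8 and 23.4 CPM. Its reads in male libraries 1 to 4 were 259, 459, 249 and 340, or 18.9, 21.7, 20.6 and 21.9 CPM. The male values all lay within the range of the female values. The means were 21.9 ± 4.2 CPM in females and 20.8 ± 1.4 in males (SD, n = 4 per sex), with a log2 fold change of 0.07 ± 0.11 (SE; edgeR adjusted p = 0.562). Inverting the exact permutation test on log2 CPM gave a 95% interval of -0.30 to 0.52 for the difference (female minus male), so that a 2-fold difference in either direction lies outside it. The sign of this fold change turned to -0.14 with upper quartile scaling and to -0.043 without female replicate 2, neither of which passed the test.

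Most reads of the group came from tetur11g04840. Female libraries 1 to 4 held 3136, 2411, 2255 and 2550 of its reads, or 178, 185, 172 and 182 CPM. Male libraries 1 to 4 held 4514, 7370, 3722 and 5347, or 329, 349, 307 and 345 CPM. The sexes did not overlap, and within each sex the libraries were close together. The means were 179 ± 6 CPM in females and 332 ± 19 in males (SD, n = 4 per sex), a log2 fold change of -0.89 ± 0.05 (SE; edgeR adjusted p = 4.93e-10). This was below the 2-fold minimum, but with upper quartile scaling it came to -1.10 and passed. That scaling moved the median of all tested genes from -0.05 to -0.27.

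**Figure D2:**
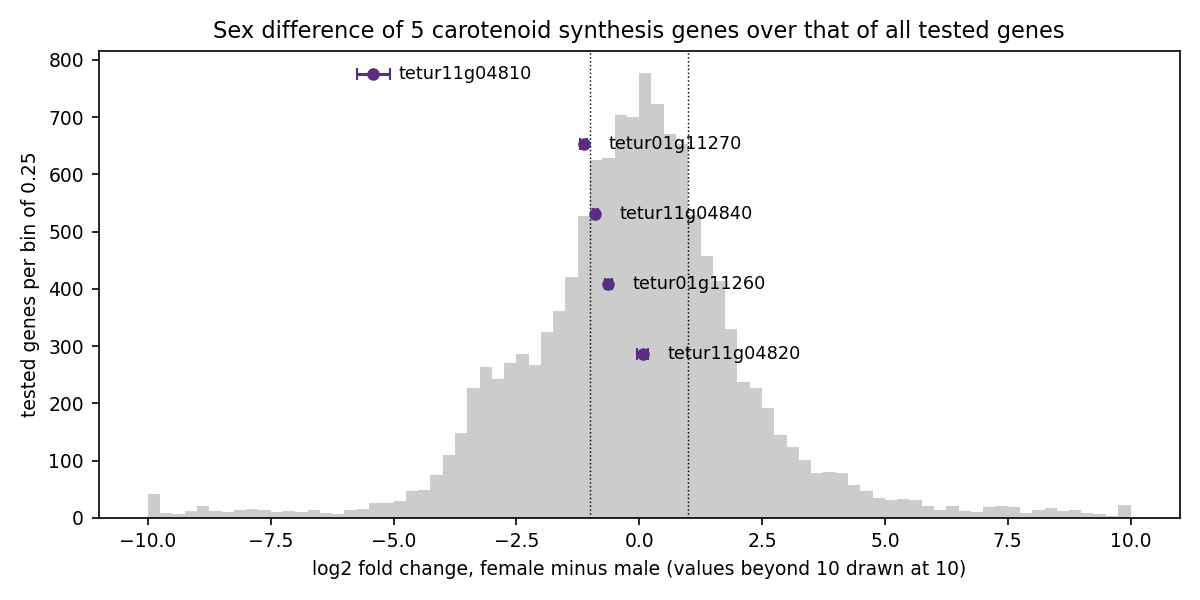
Log2 fold change (female minus male, horizontal axis) of the 5 genes as purple points with SE, placed at arbitrary heights over a histogram of all 12885 tested genes (vertical axis, genes per bin of 0.25); dotted lines mark the 2-fold minimum. The point of tetur11g04810, at -5.41, lies in the left tail, and the other 4 lie between -1.13 and 0.07 in the bulk of the genes.

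Summed over the 5 genes, the level (mean ± SD over 4 libraries) was 241 ± 10 CPM in females and 445 ± 16 in males. The female sums ran from 230.1 to 251 CPM and the male sums from 422 to 457 CPM. The difference was -0.88 in log2 (female minus male; exact two-sided permutation p = 0.0286, the smallest that 4 against 4 libraries can give). Most of these reads were those of tetur11g04840, and without that gene the difference was -0.87 (exact permutation p = 0.0286). The sum of the tetur01 genes was 39.6 ± 1.2 CPM in females and 76.9 ± 6.3 in males, a log2 difference of -0.95 (exact permutation p = 0.0286). The sum of the tetur11 genes was 202 ± 10 CPM in females and 368 ± 14 in males, a log2 difference of -0.87 (exact permutation p = 0.0286).

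The clusters as wholes did not differ detectably in their sex difference. The log2 ratio of tetur01 to tetur11 reads was -2.35 ± 0.09 for females and -2.26 ± 0.13 for males (SD, n = 4 per sex), a shift of -0.08 (exact permutation p = 0.314) with a 95% interval of -0.35 to 0.17. This ratio does not depend on the scaling between libraries. It is close to a ratio to tetur11g04840, which held 89.0% ± 1.5 of the tetur11 reads in females and 90.2% ± 1.7 in males. Without that gene the shift was -0.25 (exact permutation p = 0.257), and without tetur11g04810 it was -0.14 (exact permutation p = 0.143). The ratio of each pair of the 5 genes was therefore compared between the sexes, 10 pairs in all, by exact two-sided permutation tests adjusted over the 10 pairs.

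For 9 of the 10 pairs the ratio did not overlap between the sexes (adjusted exact permutation p = 0.0317 for each, the value that the smallest possible p of 0.0286 takes here). Among all pairs of tested genes 85.0% did not overlap, so the count is near the background, and the 10 pairs share 5 genes. Within the tetur01 cluster the log2 ratio of tetur01g11260 to tetur01g11270 was -0.62 ± 0.04 for females and -1.11 ± 0.13 for males (SD, n = 4 per sex), a shift of 0.49. Within the tetur11 cluster, the log2 ratio of tetur11g04820 to tetur11g04840 was -3.05 ± 0.23 in females and -4.00 ± 0.09 in males, a shift of 0.95. The ratio of tetur11g04810 to tetur11g04820 moved furthest, by -5.32, from -5.83 ± 0.45 in females to -0.51 ± 0.56 in males.

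The smallest of the 9 shifts was that of tetur01g11260 against tetur11g04840, 0.26. Its adjusted p rose to 0.0635 when any female library was left out, as did that of tetur01g11260 against tetur11g04820 without male replicate 1. The pair tetur01g11270 and tetur11g04840, from different clusters, overlapped between the sexes, with a shift of -0.24 (adjusted exact permutation p = 0.0857) and a 95% interval of -0.51 to 0.03. Without male replicate 2 this shift was -0.30 (adjusted exact permutation p = 0.0286).

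**Figure D3:**
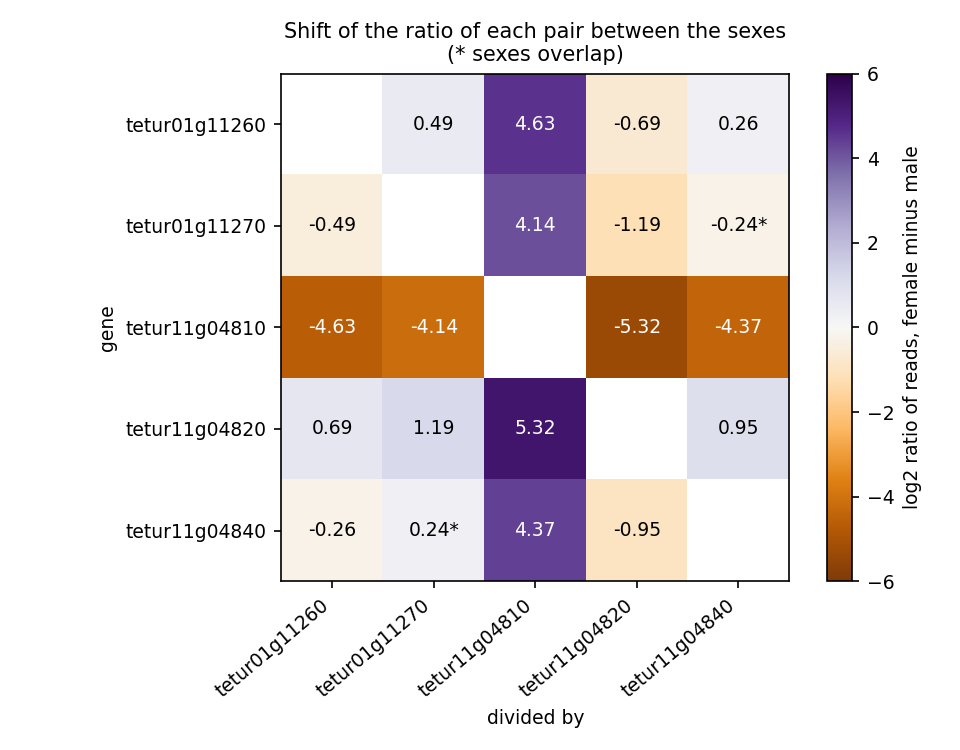
Shift between the sexes (log2 ratio of reads, female minus male) for the gene in each row divided by the gene in each column; the asterisk marks the pair whose libraries overlap between the sexes. The row of tetur11g04810 runs from -5.32 to -4.14, and shifts among the other 4 genes are at most 1.19 in size.

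The shares of the group's reads are given as a description. The share of tetur11g04840 (mean ± SD over 4 libraries) was 74.4% ± 0.7 for females and 74.6% ± 1.9 for males. The share of tetur11g04820 was 9.04% ± 1.37 in females and 4.67% ± 0.31 in males. The share of tetur11g04810 was 0.147% ± 0.038 in females and 3.46% ± 1.35 in males. The share of tetur01g11260 was 6.49% ± 0.30 in females and 5.46% ± 0.38 in males, and that of tetur01g11270 was 9.97% ± 0.59 in females and 11.8% ± 1.1 in males. Shares of reads depend on gene length, so they do not say which gene is the more abundant transcript.

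The genes differed in how steady they were among pools of the same sex. The level of tetur01g11260 in females varied by a coefficient of variation of 1.60%, below the 6.66% that counting its reads alone would give on average. The SD of its log2 CPM among female libraries was larger than that of only 0.8% of the 1000 tested genes nearest to it in female level. A spread below counting error cannot show how steady tetur01g11260 itself is. In males its coefficient of variation was 4.87%. For tetur11g04840 the coefficient was 3.27% in females and 5.66% in males, and for tetur01g11270 it was 4.10% in females and 10.6% in males.

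In males tetur11g04810 was the least steady of the 5, with a coefficient of variation of 35.0% where counting alone would give 6.64%. Its log2 SD among male libraries exceeded that of 99.6% of the 1000 tested genes nearest in male level. Relative to the male mean, the libraries stood at 1.10, 0.759, 1.45 and 0.688 in replicates 1 to 4, so replicate 3 was 2.11 times replicate 4. In females its coefficient was 23.9%, below the 44.7% of counting alone at so few reads. Of the 8133 tested genes at 10 CPM or more in males, 64 (0.787%) had a highest male library at 2 or more times the lowest, and tetur11g04810 was among them. The order of its male libraries was replicate 3 highest, then 1, 2 and 4. Of the 64 genes, 31 (48.4%), tetur11g04810 included, had this order, the most frequent of the 24 possible orders. How often all tested genes had this order was not counted. Genes measured in the same pools are not independent, so the count does not set tetur11g04810 apart. With the 2-fold minimum 47 of the 64 were called higher in males, against 30.5% of all tested genes. The 64 were picked by their level in males, which favours genes higher in males, so these shares are not on the same basis. This set of genes was looked at after the values of tetur11g04810 had been seen. Every male library was still far above the females, and without any one of the male libraries the log2 fold change stayed between -5.55 and -5.19.

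The opposite held for tetur11g04820, which varied among females more than among males. Its coefficient of variation was 19.1% in females, where counting alone would give 5.65%, and 6.70% in males. Its log2 SD among female libraries exceeded that of 98.2% of the 1000 tested genes nearest in female level, against 44.5% in males. Female replicate 2 was at 1.24 times the female mean and replicate 3 at 0.811 times.

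**Figure D4:**
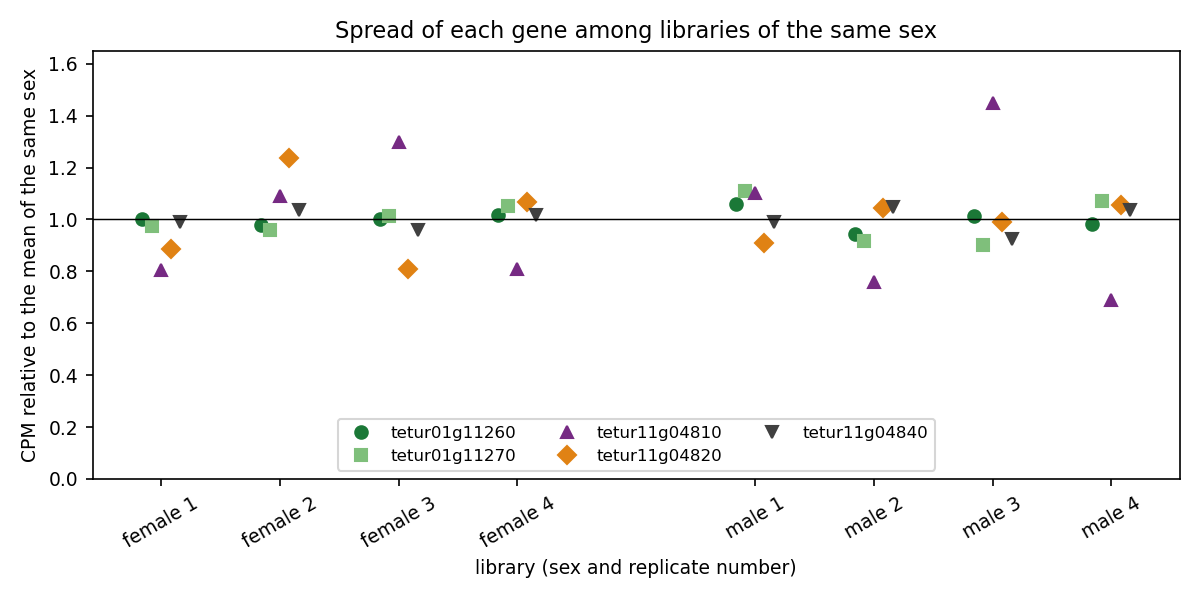
CPM of each gene divided by its mean over the libraries of the same sex (vertical axis), by library (horizontal axis); the line at 1 is that mean. In males tetur11g04810 runs from 0.688 to 1.45, and in females tetur11g04820 runs from 0.811 to 1.24, while tetur11g04840 stays between 0.924 and 1.05.

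For each gene the tested genes whose levels moved most alike over the 8 libraries were sought among those at 10 CPM or more, by the root mean square difference of centred log2 CPM. For tetur11g04820 the closest was tetur24g01080, at a difference of 0.06. The gene tetur24g01080 had 21.5, 26.8, 19.4 and 23.9 CPM in female libraries 1 to 4 and 19.7, 21.6, 20.2 and 22.8 CPM in male libraries 1 to 4. Its high female replicate 2 and low female replicate 3 follow from its choice as the closest gene over these same libraries. The second closest, tetur09g05940, was at 0.12.

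For tetur11g04810 the closest genes were tetur06g04450 and tetur27g00090, at 0.14 and 0.16. The 0.5 CPM added on this scale exceeds the female level of tetur11g04810 and brings its sex difference to -4.15. The log2 fold changes fitted by edgeR stood further apart, at -5.41 for tetur11g04810, -4.45 for tetur06g04450 and -4.19 for tetur27g00090. The gene tetur06g04450 had 162, 113, 168 and 96.6 CPM in male libraries 1 to 4, and 5.07 to 7.39 CPM in females. Its male libraries had the same order as those of tetur11g04810, but it was picked for likeness over these libraries. For tetur01g11260 they were tetur08g00700 and tetur01g03420, both at 0.04. For tetur01g11270 they were tetur19g00160 and tetur02g00400, at 0.06 and 0.07, and for tetur11g04840 they were tetur02g12680 and tetur27g01790, both at 0.04. The closest pair of members, tetur01g11270 and tetur11g04840, was at 0.15. Of 8648 candidate genes for each, 383 were closer to tetur01g11270 than that and 701 were closer to tetur11g04840. The members are few beside the candidates, so the presence of closer genes says little about how alike the members are. Much of such a measure is set by the size of the sex difference, since it spans libraries of both sexes.

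The IDs listed next to the 2 clusters held genes higher in either sex. The background with the 2-fold minimum is 26.9% of tested genes for higher in females and 30.5% for higher in males, and at any fold it is 43.7% and 46.2%. Around the tetur01 cluster, the 5 IDs before and the 5 after it included 3 without any read and 7 tested genes, of which 5 were higher in females, 1 in males and 1 not called, with and without the 2-fold minimum. The nearest ID before the cluster, tetur01g11240, had 9.90 ± 0.74 CPM in females and 11.1 ± 1.2 in males (SD, n = 4 per sex; log2 fold change -0.18 ± 0.10, edgeR adjusted p = 0.120). The nearest after it, tetur01g11280, had 0 reads in all libraries.

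Around and between the tetur11 genes there were 11 other IDs, of which 7 were tested. At any fold 3 of them were higher in females and 4 in males, and with the 2-fold minimum 1 and 2. Among them tetur11g04920, singled out after its values were seen, had a log2 fold change of -0.87 ± 0.08 (SE; edgeR adjusted p = 9.47e-08), close to the -0.89 of tetur11g04840. The nearest before the cluster, tetur11g04800, stands next to tetur11g04810 in the list and stood at 129 ± 5 CPM in females and 100.3 ± 6.9 in males (SD, n = 4 per sex). Its log2 fold change was 0.37 ± 0.06 (SE; edgeR adjusted p = 2.13e-05), under the 2-fold minimum and opposite in direction to that of tetur11g04810. The ID between members, tetur11g04830, had 10 reads in all female and 23 in all male libraries, and the nearest after the cluster, tetur11g04850, had 0 and 2. The fold changes of the tested IDs in both neighbourhoods ran from -2.83, for tetur11g04860, to 8.96, for tetur01g11310. That range lies above the -5.41 of tetur11g04810. The order of IDs was taken from the table, which does not give positions on the genome.

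**Figure D5:**
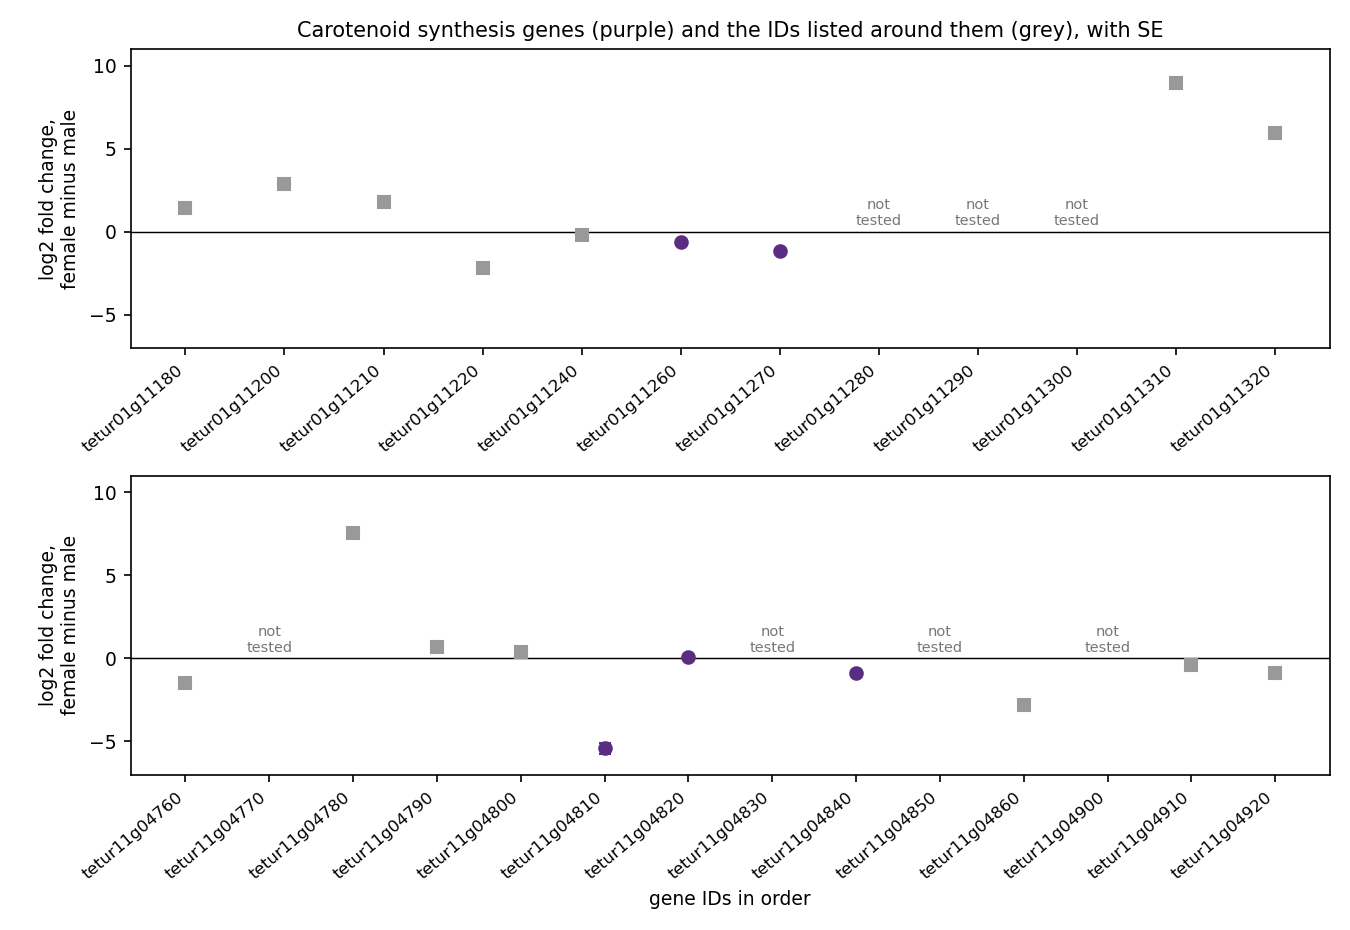
Log2 fold change (female minus male, vertical axes) with SE for the carotenoid synthesis genes (purple circles) and the IDs listed around them (grey squares), in the order of their IDs; IDs with too few reads are marked as not tested. The tetur01 genes stand at -0.63 and -1.13. Of the 7 tested IDs listed around them, 5 were higher in females, 1 in males and 1 was not called. The gene tetur11g04810 stands at -5.41 beside tetur11g04800 at 0.37.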

How the data were processed

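Whole-body RNA of 4 female and 4 male pools was sequenced from strand-specific, oligo dT-selected libraries, per the labels' protocols. The deposited values are raw counts of reads per gene ID, not normalized, per the file headers. STAR (version 2.4.1d) and HTSeq (version 0.6.1) are listed, per the submitters' processing notes; their settings, the genome build and the annotation are not given in the sources. Genes with near copies may have lost or gained reads.

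Columns were assigned by the library name in each sample's description and sexes by the title. Of the 17654 IDs, 0 rows named no gene and 0 columns were left unused. None of the IDs (0 matched) occurs in the RefSeq gene table of the species, so no sequence, length, coordinate or role is given per gene, and the planned list of genes of the wider pathway was not used.

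Females were compared with males by edgeR version 4.0.16 (R version 4.3.3; quasi-likelihood F test, TMM scaling, filterByExpr, sex as the only term), with Benjamini-Hochberg adjustment over 12885 genes. A call needed an adjusted p below 0.05 and a 2-fold change. Standard errors are the fold change over the square root of F. Sums, ratios and shares were tested by exact permutation of the sexes (two-sided, 70 assignments, absolute difference of means), with 0.5 reads added for pairs of genes. Likeness used log2(CPM + 0.5). The fit was first tested on simulated counts.

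All 5 members were named. The 2 most alike tested genes per member at 10 CPM or more, and the nearest IDs on each side of and between members, were named by rule; tetur11g04860, tetur11g04920 and tetur01g11310 were singled out after their values were seen. Members and lists were chosen with earlier results of these data known. Alternatives were other scalings and filters, DESeq2 (version 1.42.0), limma-voom (limma version 3.58.1), a block on the replicate number, and each library left out in turn; sums without single members and calls at any fold were added after seeing the data.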

Additional observations from a re-analysis of the deposited data

How the results depend on the processing

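The fold changes of tetur01g11260, tetur01g11270 and tetur11g04810 kept their direction and their side of the thresholds in all 16 alternatives each. That of tetur11g04840 did so in 15, passing the 2-fold minimum at -1.10 with upper quartile scaling, which made 3 members higher in males instead of 2. Calls at any fold numbered 4 in males. The fold change of tetur11g04820, which passed the test in none, turned to -0.14 with upper quartile scaling and ranged from -0.043 (without female replicate 2) to 0.15 with 1 library left out. With 1 library left out, the sum of the 5 genes ranged from -0.91 to -0.86, that of tetur01 from -0.99 to -0.91, that of tetur11 from -0.90 to -0.84 and the ratio of the clusters from -0.14 to -0.03. Same-numbered libraries were not treated as pairs, since the labels do not say that they share a culture or batch. The correlations of their deviations were -0.12, -0.0054, 0.020 and 0.040, which cannot settle whether they do. With the replicate block edgeR called 3472 genes higher in females and 3932 in males, against 3467 and 3935 without it. The blocked sums kept their sizes of -0.88, -0.95 and -0.87, with exact p = 0.125 each, the smallest that 4 pairs allow. None of the 38 sets of libraries checked for a value far from the rest held such a value (0 sets). Depth limits tetur11g04810 in females, where 4 to 6 reads per library set its level.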
